A study of Mus musculus with 9 samples.

Results

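The genes of fatty acid (FA) uptake, binding and activation followed in mouse liver were the FA-binding proteins Fabp1, Fabp2, Fabp4 and Fabp5, the surface receptor Cd36, the FA transport proteins Slc27a2 and Slc27a4, and the long-chain acyl-CoA synthetases Acsl1, Acsl4 and Acsl5. These 10 were chosen by gene name, as every non-control probe of the scanner files that carries one of the 10 symbols, among 37074 gene names on the array. They had 18 probes of 56605. Livers of male C57BL/6N mice were compared in 3 groups of 3 one-colour arrays. The labels give 12 months as the age and also as the time since treatment. The text of the study counts this time from injection of the virus into young adults and, for the HFD, gives a shorter feeding in its methods, so neither the age nor the length of the diet is settled here. AAV-V mice had received an adeno-associated virus without GP73 (the empty vector) and a normal diet. AAV-GP73 mice had received the virus that expresses GP73 in hepatocytes and the same diet, and AAV-V HFD mice had received the empty vector and a high fat diet (HFD). Every mouse in the comparison therefore carried a virus. The sources used here do not state whether an array holds the RNA of 1 mouse or of a pool, so the p-values measure the spread between arrays of a group. In whole liver, fewer cells of a type and less RNA per cell cannot be told apart.

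Long-chain FAs enter the hepatocyte with the help of CD36 and of the FA transport proteins, some of which also carry acyl-CoA synthetase activity. Inside the cell the FA-binding proteins keep them soluble, and the acyl-CoA synthetases attach coenzyme A, after which the FA can be oxidized or built into triglycerides and phospholipids. Fabp1 is the abundant liver form of the binding proteins and is, like Acsl1, a textbook target of the nuclear receptor PPARα, which binds DNA with RXR at direct repeats of a short motif separated by 1 base.

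The promoter of Fabp1 is shown because such a repeat stands in it. The 250 bases before the annotated start were read from RefSeq on GRCm38.p6 for 9 promoters of 8 of the 10 genes (Acsl1 has 2 promoters in the table). Those of Fabp1 and Slc27a2, the members detected on every array, and of Acsl5, the member that was lower, are printed 5′ to 3′ on the strand of the gene. Capitals mark matches, on either strand, to the single motif AGGTCA or to the repeat AGGNCANAGGNCA.

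Fabp1, chr6:71199629-71199878, plus strand: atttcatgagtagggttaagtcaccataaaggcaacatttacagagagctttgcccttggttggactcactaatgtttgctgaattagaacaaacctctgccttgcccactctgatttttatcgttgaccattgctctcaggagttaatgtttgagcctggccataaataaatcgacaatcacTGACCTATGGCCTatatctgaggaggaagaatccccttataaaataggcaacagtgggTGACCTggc

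Slc27a2, chr2:126552774-126553023, plus strand: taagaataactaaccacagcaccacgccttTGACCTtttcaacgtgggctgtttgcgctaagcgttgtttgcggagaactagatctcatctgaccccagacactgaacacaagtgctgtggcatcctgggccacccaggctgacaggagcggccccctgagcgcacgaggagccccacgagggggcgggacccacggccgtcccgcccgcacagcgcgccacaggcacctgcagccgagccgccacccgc

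Acsl5, chr19:55253119-55253368, plus strand: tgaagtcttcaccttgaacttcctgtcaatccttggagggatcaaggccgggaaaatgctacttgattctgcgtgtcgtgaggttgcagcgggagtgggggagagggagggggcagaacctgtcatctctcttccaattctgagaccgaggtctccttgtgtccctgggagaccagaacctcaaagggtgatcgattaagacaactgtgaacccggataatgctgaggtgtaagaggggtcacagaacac

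The repeat occurred in 111 of 32851 promoter windows of this length (0.338%), and among the 9 of these genes in that of Fabp1 alone. The match in Fabp1 lies on the opposite strand, from base -67 to base -55 before the start, and it overlaps the AGGTCA match at the same place. The stricter spelling AGGTCANAGGTCA was in 11 of all windows and in none of the 9. The single motif was in 14.0% of all windows and in 3 of the 9, namely Fabp1, Slc27a2 and Cd36, and a TATAAA was in 12.4% of all windows and, among the 9, in Fabp1 from base -30 to base -25. The window of Acsl5 held no match to any of these letters. A match describes the letters of the window and is not evidence of a bound site.

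What each array could detect of these genes was read first from the detection call of the scanner software, which marks a spot as well above background (here, detected). Fabp1 and Slc27a2 were detected on all 9 arrays, by 1 probe each. Of the 18 probes, 8 were detected on no array, and these included the single probe of Cd36, so that no level is given for it. The other 10 probes, of 9 genes, were each detected on all 3 arrays of at least 1 group and were tested. Of those 10, the probes of Fabp2, Slc27a4 and Acsl4 and 1 probe of Acsl1 were detected on no AAV-V array, and they entered through the other groups. The tested probes of Fabp4 and Fabp5 and the other tested probe of Acsl1 were each detected on 1 AAV-V array. They too entered through other groups. The share of all spots detected ranged from 10.2% to 10.7% on the AAV-V arrays, from 16.0% to 18.4% on the AAV-GP73 arrays and from 13.8% to 16.7% on the AAV-V HFD arrays. Before scaling, the spots detected on all 9 arrays had a median signal of 36.35 to 41.76, 138.1 to 169.3 and 95.41 to 201.9 in that order. The mean log2 signal of the spike-ins was 10.38 to 10.92, 10.42 to 10.49 and 10.49 to 10.87. Why the AAV-V arrays were dimmer was not tested. After scaling, the lowest log2 signal that counted as detected was 3.83 to 4.42 on the AAV-V arrays, 1.87 to 2.46 on the AAV-GP73 arrays and 1.67 to 2.88 on the AAV-V HFD arrays, so a probe could be undetected in AAV-V at a scaled signal that was detected elsewhere. Alb, a defining gene of hepatocytes, was detected on all 9 arrays by both of its probes. The probe of Golm1, which encodes GP73, was detected on 0 arrays and so could not check the labels.

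**Figure D1:**
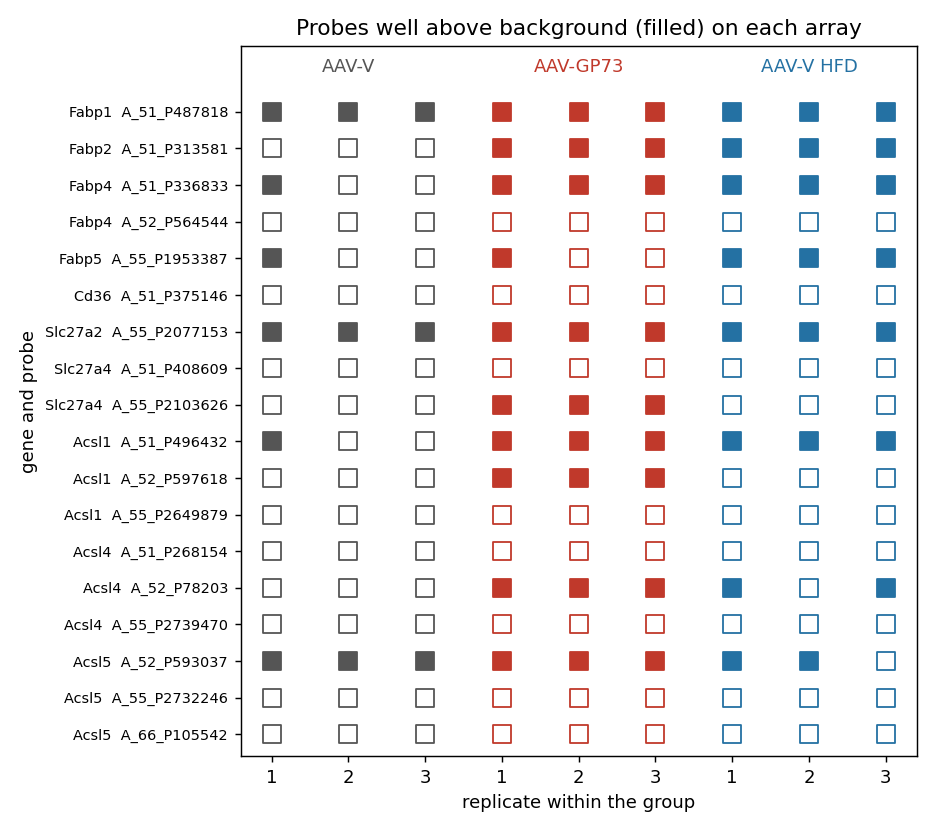
Each row is 1 of the 18 probes and each column 1 of the 9 arrays, and a filled square marks a probe well above background on that array. Fabp1 and Slc27a2 are filled throughout, Fabp2 is open on the AAV-V arrays and filled on the other 6, and 8 probes are open on all 9.

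Several genes had more than 1 probe, and detection depended on the probe. In mm9 coordinates, 5 of the genes had 13 probes, and in 4 of these 5 the probe detected on the most arrays was also the one nearest to the 3′ end. For Acsl1 the 3′-most probe was detected on 7 arrays, a probe 1150 bases upstream of it on 3 and a probe 19366 genomic bases upstream on 0. For Acsl4 the 3′-most probe was detected on 5 arrays, and a pair of overlapping probes 2596 and 2612 bases upstream on none. Fabp4 and Slc27a4 had 1 detected and 1 undetected probe each, the latter 3990 and 578 bases upstream. Acsl5 was the exception, since its detected probe lies 2840 bases upstream of an undetected one, and its other probe is on the strand opposite to the gene. Whether the position of a probe shapes its signal was not tested.

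The probe sequences below come from the scanner files, 5′ to 3′ on the strand of the gene, and are shown because the levels of Fabp1 and Acsl5 rest on 1 probe each, and because the other pair are probes of detected genes that saw no signal. The Fabp1 probe is printed over its first 43 bases, up to a stop codon in capitals in the reading frame that starts at its second base.

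Fabp1, A_51_P487818: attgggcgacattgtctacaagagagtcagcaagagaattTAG

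Acsl5, A_52_P593037: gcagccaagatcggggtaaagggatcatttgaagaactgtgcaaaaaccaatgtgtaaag

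Fabp4, A_52_P564544, detected on no array: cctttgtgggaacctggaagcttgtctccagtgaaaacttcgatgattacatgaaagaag

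Slc27a4, A_51_P408609, detected on no array: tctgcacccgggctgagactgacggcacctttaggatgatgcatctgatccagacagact

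The Fabp1 probe lies on chromosome 6 of mm9, from 71154906 to 71154965. The 60 bases of the Acsl5 probe span 589 bases of chromosome 19, from 55368743 to 55369331, so that 529 genomic bases between its ends are not in the probe. That probe can thus pair along its whole length only with a transcript from which those bases were removed.

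The first comparison set AAV-GP73 against AAV-V, both on normal diet and on 1 slide, and asked how these genes stood after GP73 had been expressed in hepatocytes. Fabp1, Fabp2, Slc27a2 and Acsl1 were higher and Acsl5 was lower in AAV-GP73, the last except with arrays scaled on spike-ins (0.14 on the log2 scale). After a normexp background correction, Fabp1 was called and Fabp2, Slc27a2, Acsl1 were not. Fabp4, Fabp5, Slc27a4, Acsl4 and the other tested probe of Acsl1 did not pass the test in the scaling used here. Some of these passed it in others: Acsl4 with log2 differences of 1.93 to 2.72 and the upstream probe of Acsl1 with 1.66 to 2.45 in 4 scalings each, Fabp4 with 1.48 and 2.27 in 2, and Slc27a4 with 1.51 on spike-ins. Calls needed a difference of 2-fold or more and, in limma over all 6591 probes tested, an adjusted p under 0.05, and 5 of the 10 tested probes were called, where 44.7% of all tested probes were called, 25.4% higher and 19.3% lower. That share is close to the one in the list. Of the 5, Fabp2 and the 3′ probe of Acsl1 entered the test through the groups where they were high, so the count is not independent of the filter. The median log2 difference was 0.70 over the 10 probes and 0.43 over all probes tested, and neither is independent of the filter. Over the 2667 probes detected on all 9 arrays, among them those of Fabp1 and Slc27a2, the median was -0.31. When these were fitted alone, 296 were called higher and 894 lower. The value against which a log2 difference is to be read thus depends on the probes taken. Among the erythroid markers, raised scaled signals of Hba-a1 and Hba-a2 went with this contrast. Of 4 tested erythroid probes 3 were called higher, all of these genes, and Alas2 was not (0.55, adjusted p = 0.428 from limma). The summed log2 signal over the 6 erythroid probes was 11.74 to 14.06 in AAV-GP73 and 8.69 to 10.46 in AAV-V. The part of these markers in the differences was not tested. The hepatocyte list of 11 probes summed to 13.44 to 13.89 in AAV-GP73 and 13.54 to 14.07 in AAV-V. Single hepatocyte markers did differ. Of 10 tested probes 2 were called higher (Tat by 2.05 and Hpd by 1.75 on the log2 scale) and 1 lower (Cps1, -1.79).

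The second comparison set AAV-V HFD against AAV-V and asked the same of the diet. Fabp1, Fabp2, Slc27a2 and Acsl1 were again higher, and Acsl5 lower, than in AAV-V, except that Acsl1 was at -0.27 on the log2 scale after normexp, where Fabp2 and Slc27a2 were not called either. Both comparisons share the AAV-V arrays, and only the arrays of AAV-V HFD were on the second slide, so slide and diet cannot be told apart. Of the 10 probes, 7 were called, where 35.5% of all tested probes were called, 13.1% higher and 22.3% lower. Here too Fabp2 and the 3′ probe of Acsl1 had entered through the groups where they were high, so this count is not independent of the filter. The tested probe of Slc27a4 and the upstream probe of Acsl1 were among the 7 but were detected on no array of either group, so that these 2 carry neither a size nor a direction. Among all 2337 probes called here 38 were of that kind, and in the comparison of AAV-GP73 with AAV-V 5 of 2949. The median log2 difference was 0.52 over the 10 probes and 0.05 over all, and neither is independent of the filter. The 10 include the 2 probes without a size or direction. Over the 2667 probes detected on all 9 arrays the median was -0.62. When these were fitted alone, 136 were called higher and 1042 lower. Single arrays decided much of the count of 7 called probes. Without AAV-V HFD replicate 2 it fell to 2 called probes, those of Fabp2 and Acsl5, and without AAV-V replicate 2 or AAV-V replicate 3 it was 4. In this scaling the hepatocyte markers were also lower, their summed log2 signal being 12.18 to 13.37 in AAV-V HFD, with 4 of 10 tested probes called lower, and their part in the differences was not tested.

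**Figure D2:**
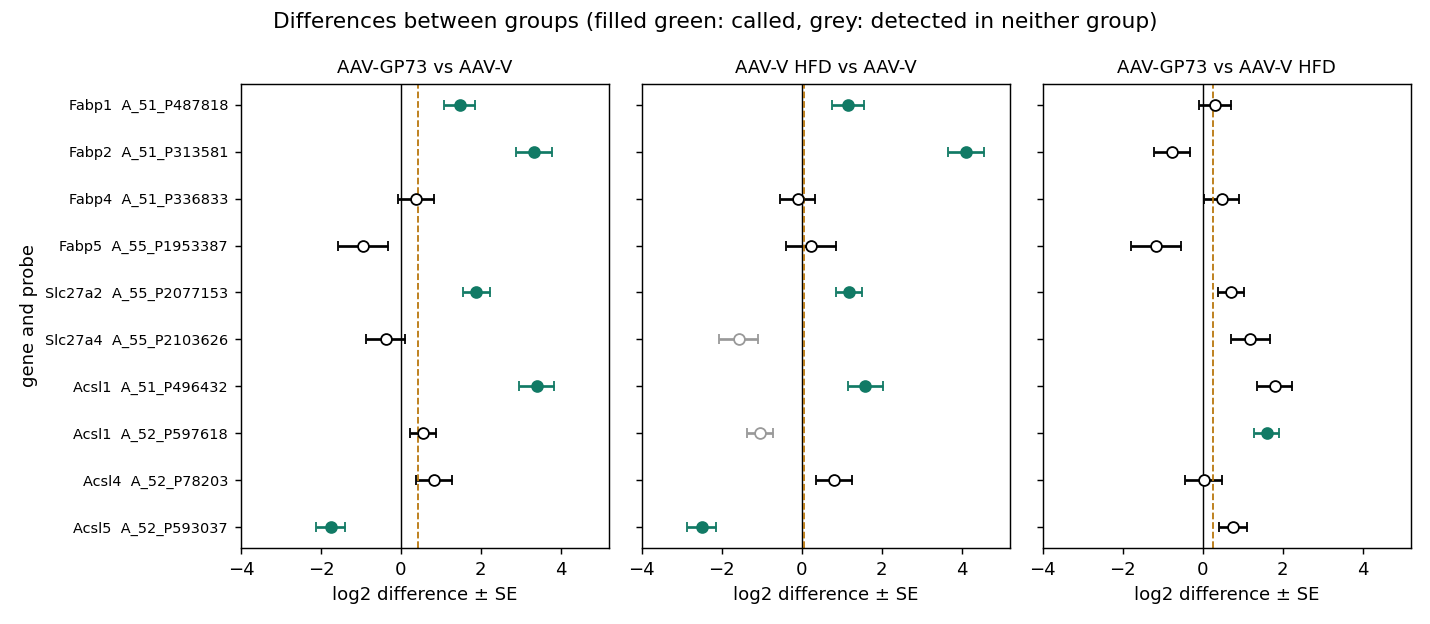
Points give the log2 difference of each of the 10 tested probes in 3 comparisons and bars its standard error from limma. Filled green points passed the test, grey points belong to probes detected in neither group, and the dashed line is the median of all 6591 probes. Acsl5 lies on the other side of 0 from Fabp1, Fabp2, Slc27a2 and Acsl1 in both comparisons with AAV-V in this scaling.

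Among the binding proteins, Fabp1 binds long-chain FAs in the cytosol of hepatocytes. Its scaled log2 signal was 10.22, 9.60 and 10.47 on the AAV-V arrays, 11.16, 11.63 and 11.92 on the AAV-GP73 arrays, and 11.51, 11.74 and 10.53 on the AAV-V HFD arrays. All 6 arrays of the latter groups were above the AAV-V arrays, as 39.2% of all tested probes were in AAV-GP73, with 22.9% for AAV-V HFD, and the AAV-V HFD array of replicate 3 lay closest to them. The log2 difference was 1.47 (SE 0.39, adjusted p = 0.00866 from limma) in AAV-GP73 and 1.16 (SE 0.39, adjusted p = 0.034) in AAV-V HFD. The first was called under all 24 alternative settings, with values from 1.23 to 3.36. The second was past the threshold under 15 of the 24 and had the same sign under all of them. It was lost without AAV-V replicate 1 or 2, without AAV-V HFD replicate 1 or 2, and without AAV-GP73 replicate 2.

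Fabp2 is the intestinal form of the binding proteins. On the AAV-V arrays its log2 signal was 1.60, 2.99 and 2.33, below detection on each. It was 4.76, 6.10 and 6.08 on the AAV-GP73 arrays and 6.13, 6.78 and 6.32 on the AAV-V HFD arrays, detected on all 6. Against the detection limit of the AAV-V arrays, the AAV-GP73 mean of Fabp2 was at least 3.04-fold higher (limma, adjusted p = 0.000356) and the AAV-V HFD mean at least 5.15-fold higher (adjusted p = 0.000491). These are lower bounds, set against the lowest detected signal of each AAV-V array, and were computed for the processed signals alone. After normexp the log2 difference was 0.13 (adjusted p = 0.627) in AAV-GP73 and 0.46 (adjusted p = 0.0768) in AAV-V HFD, so that both calls were lost and both values lay below the bounds. Because Fabp2 is known from the gut, 7 other enterocyte genes were read beside it. Of their 9 probes 8 were detected on no array, including those of Vil1, Lct, Sis and Alpi. The ninth was that of Apoa4, an apolipoprotein that mouse liver also makes, with log2 differences of 0.82 (adjusted p = 0.317) and 1.91 (adjusted p = 0.0406).

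Fabp4, the adipocyte form, was measured by a probe detected on 1 AAV-V array and on all 6 others. Its log2 signal was 4.23, 3.05 and 3.58 in AAV-V, 4.73, 3.34 and 3.94 in AAV-GP73, and 3.03, 4.12 and 3.42 in AAV-V HFD. The 3 groups overlapped, and the log2 differences from AAV-V were 0.38 (95% interval -0.58 to 1.34) and -0.10 (-1.06 to 0.86). They passed the test with the 75th percentile of all probes (1.48 and 1.13) and with spike-ins (2.27 and 1.60), and after normexp the second was called at -1.07. Of 11 probes of adipocyte markers, none was detected on all 3 arrays of a group, and those of Adipoq, Lep and Plin1 were detected on no array. Fabp5, the epidermal form, was detected on 1, 1 and 3 arrays of AAV-V, AAV-GP73 and AAV-V HFD. Its log2 signal ranged from 3.35 to 4.39, from 1.51 to 4.34 and from 3.31 to 4.74 in those groups, which overlapped. The log2 differences from AAV-V were -0.94 (adjusted p = 0.22 from limma) and 0.23 (adjusted p = 0.786). Without AAV-GP73 replicate 1, the only array of that group that detected Fabp5, the first was -1.68 (adjusted p = 0.0243). The second was 1.46 (adjusted p = 0.0308) with the 75th percentile of all probes and 1.93 (adjusted p = 0.00993) with spike-ins.

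Cd36, a scavenger receptor that takes up long-chain FAs, gave no measure here. Its probe, on chromosome 5 of mm9 from 17288600 to 17288659, was detected on no array.

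Slc27a2 encodes a transport protein that also activates very long-chain FAs. Its log2 signal was 5.25, 5.49 and 5.58 in AAV-V, 7.38, 7.36 and 7.24 in AAV-GP73, and 6.54, 7.27 and 6.04 in AAV-V HFD. The AAV-V arrays were the lowest, with no overlap, while the AAV-GP73 and AAV-V HFD arrays overlapped. Of all tested probes, 39.2% were above AAV-V without overlap in AAV-GP73, with 22.9% for AAV-V HFD. The log2 difference was 1.89 (SE 0.33, adjusted p = 0.00104 from limma) in AAV-GP73 and 1.18 (SE 0.33, adjusted p = 0.0163) in AAV-V HFD. Without AAV-V HFD replicate 2 the latter was 0.85 (adjusted p = 0.0812). After normexp the values were 0.82 (adjusted p = 0.0151), short of a 2-fold change, and 0.29 (adjusted p = 0.287).

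The second transport protein, Slc27a4, was detected on the 3 AAV-GP73 arrays and on no other. Its log2 signal there was 3.05, 2.79 and 3.63. On the AAV-V arrays the undetected spots read 2.34, 3.90 and 4.36, and on the AAV-V HFD arrays 1.68, 1.72 and 2.50. The AAV-V values reach above the detected ones, so detection on AAV-GP73 arrays alone does not rank these groups. The lower bound for Slc27a4 in AAV-GP73 over AAV-V HFD was 1.91-fold, and limma did not call the difference (adjusted p = 0.25). Because the probe entered the test only through its detection in AAV-GP73, this bound does not count as support for a difference.

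**Figure D3:**
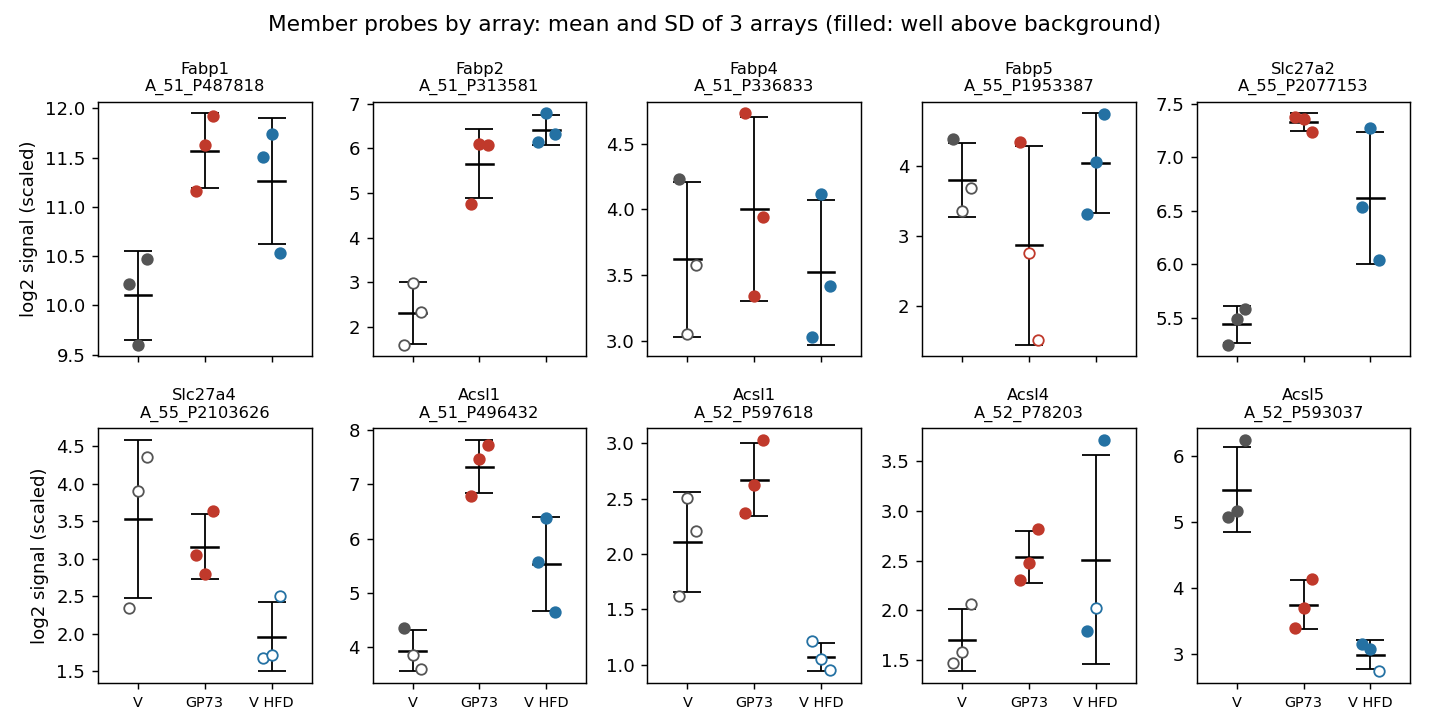
Each panel shows 1 of the 10 tested probes with the scaled log2 signal on the vertical axis, each on its own scale, and the 3 groups on the horizontal axis. Points are arrays, filled where detected, and lines give the mean and SD of 3 arrays. Fabp1, Fabp2 and Slc27a2 are lowest in AAV-V, Acsl5 is highest in AAV-V, and Fabp4 and Fabp5 overlap among groups.

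Acsl1, the main long-chain acyl-CoA synthetase of liver, was read by the probe on chromosome 8 of mm9 from 47621232 to 47621291. Its log2 signal was 4.35, 3.85 and 3.60 in AAV-V, detected on the first array only. It was 6.79, 7.46 and 7.73 in AAV-GP73 and 5.56, 6.38 and 4.64 in AAV-V HFD. The 3 groups did not overlap, with AAV-GP73 highest and AAV-V lowest. Of all tested probes, 39.2% were above AAV-V without overlap in AAV-GP73, 22.9% were in AAV-V HFD, and 20.4% were above AAV-V HFD in AAV-GP73. Since AAV-V replicates 2 and 3 were below detection, the sizes that follow are not measured differences. The log2 difference from AAV-V was 3.40 (SE 0.44, adjusted p = 0.000322 from limma) in AAV-GP73 and 1.59 (SE 0.44, adjusted p = 0.0145) in AAV-V HFD. The latter was 1.43 (adjusted p = 0.0519) without AAV-V replicate 3 and 1.17 (adjusted p = 0.0661) without AAV-V HFD replicate 2. After normexp the difference in AAV-GP73 was 0.89 (adjusted p = 0.0112), short of a 2-fold change. The probe 1150 bases upstream was detected only on the AAV-GP73 arrays, at 2.37, 2.62 and 3.03. Its undetected spots read 1.62, 2.51 and 2.21 in AAV-V, and since the AAV-GP73 values lie below the lowest detected signals of the AAV-V arrays, they give neither a size nor a direction. Over the 9 arrays the values of these 2 probes had a Pearson r of 0.34.

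Acsl4, which prefers arachidonic acid, was detected on no AAV-V array, on 3 AAV-GP73 arrays and on 2 AAV-V HFD arrays. Its log2 signal was 1.47, 1.58 and 2.06, then 2.31, 2.48 and 2.82, then 1.79, 2.02 and 3.71. The AAV-GP73 values lie below the lowest signals that counted as detected on the AAV-V arrays (3.83 to 4.42), so these levels do not rank the groups. The fit did not call Acsl4 in this scaling, and its value ran from -0.82 to 2.72 in AAV-GP73 and from -1.11 to 2.71 in AAV-V HFD over the alternative settings.

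Acsl5, found on mitochondria and endoplasmic reticulum, ran the other way. Its log2 signal was 5.08, 5.16 and 6.24 in AAV-V, 3.40, 3.70 and 4.14 in AAV-GP73, and 3.15, 3.08 and 2.74 in AAV-V HFD, the last of which was not detected. Every AAV-V array was above the other 6, as for 22.8% of all tested probes against AAV-GP73 and 23.9% against AAV-V HFD. The log2 difference was -1.75 (SE 0.36, adjusted p = 0.0024 from limma) in AAV-GP73 and -2.50 (SE 0.36, adjusted p = 0.00101) in AAV-V HFD. The fall in AAV-GP73 depended on how the arrays were scaled. It was -0.65 (adjusted p = 0.146) when arrays were scaled on the 75th percentile of all probes and 0.14 when scaled on the spike-ins, while in AAV-V HFD the value kept its sign, from -2.71 to -0.81.

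The scaling of the arrays moves every gene of an array together, so the contrast between Acsl5 and the others was also read within each array, a comparison chosen after the values were seen. The log2 ratio of the Fabp1 to the Acsl5 signal was 4.24 to 5.13 on the AAV-V arrays, 7.76 to 7.93 on the AAV-GP73 arrays and 7.79 to 8.65 on the AAV-V HFD arrays. It was higher by 3.22 in AAV-GP73, with 3.66 for AAV-V HFD, on the log2 scale. The ratio of Slc27a2 to Acsl5 was -0.66 to 0.32, 3.1 to 3.98 and 3.30 to 4.19, higher by 3.64 and by 3.68. Acsl5 itself was not detected on AAV-V HFD replicate 3. The AAV-V HFD sizes of all these ratios rest in part on that spot and are not measured differences. For Acsl1 the ratio was higher by 5.14 and by 4.10, but 2 of its 3 AAV-V signals were below detection, so these sizes are not measured differences. None of the ratios overlapped between AAV-V and the other groups. Since the genes were paired because they had been seen to differ in direction, that follows from the choice and no test of it is given. A shift of a whole array cannot change such a ratio, but other processing can. Over 23 alternative settings the change for Fabp1 ran from 2.78 to 3.84 in AAV-GP73 and from 2.92 to 4.31 in AAV-V HFD. For Slc27a2 it ran from 1.87 to 3.88 and from 1.75 to 3.87, and for Acsl1 from 1.94 to 5.74 and from 1.19 to 4.51. The sign was kept in each. A ratio does not say which of its genes changed.

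**Figure D4:**
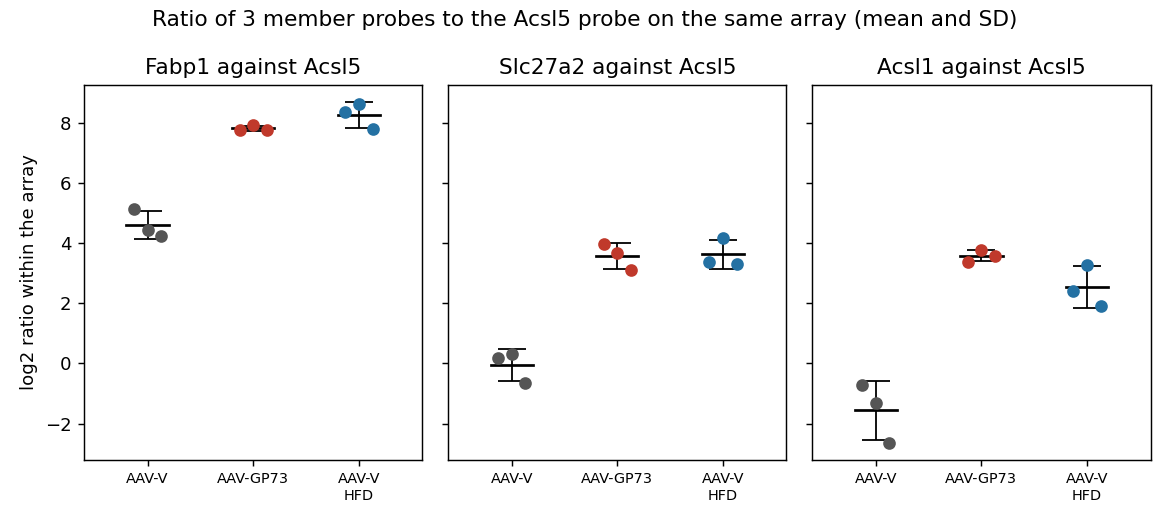
The vertical axis is the log2 ratio of the Fabp1, Slc27a2 or Acsl1 probe to the Acsl5 probe on the same array, with points for arrays and lines for the mean and SD of 3. In each panel the AAV-GP73 and AAV-V HFD arrays are above the AAV-V arrays.

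The size of the other differences moved with the scaling as well. Scaling on the 75th percentile of all probes gave a median log2 difference over all tested probes of 1.53 in AAV-GP73, with 1.28 for AAV-V HFD, and scaling on the spike-ins gave 2.32 and 1.74, against 0.43 and 0.05 in the scaling used here. The higher calls among all calls made up 56.8% for AAV-GP73, with 37.0% for AAV-V HFD. They made up 89.5% and 93.9% with the 75th percentile of all probes, 67.5% and 65.4% with quantile normalization, 98.2% in both with spike-ins, 68.9% and 67.6% in the log2 values of the authors, 48.7% and 31.2% with each array set to the median of its commonly detected probes, and 10.4% and 1.06% after a normexp background correction with an offset of 50. Fabp1, Fabp2, Slc27a2 and Acsl1 were called higher in AAV-GP73 under each of these 7 ways of processing other than normexp, where Fabp1 alone was.

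**Figure D5:**
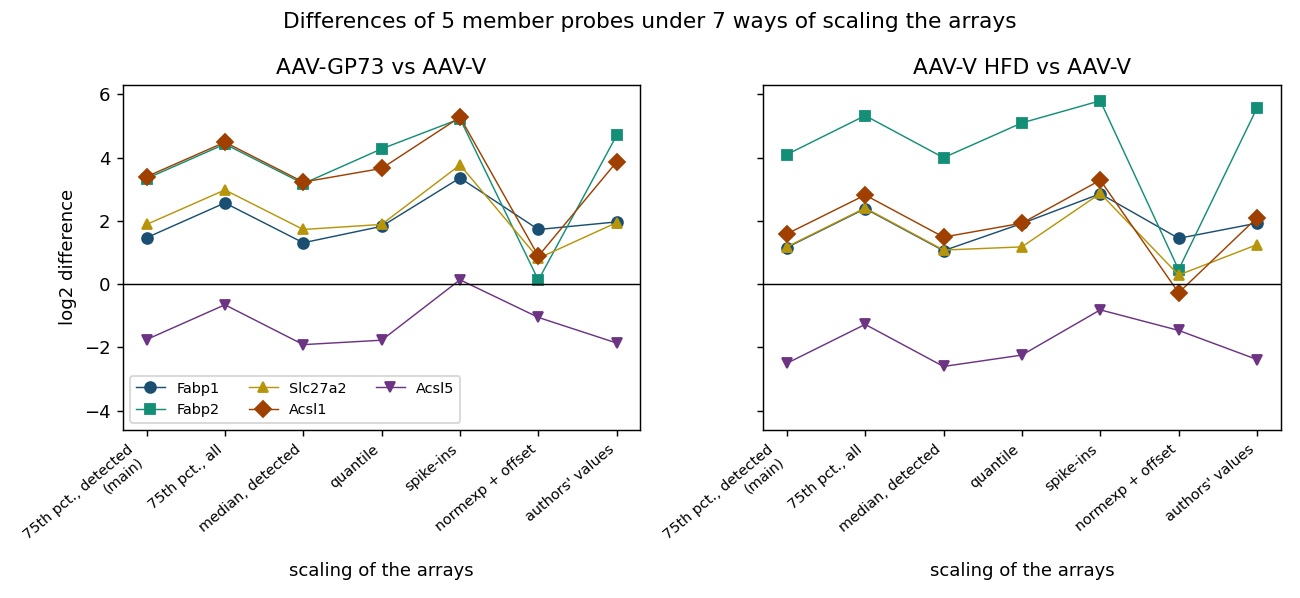
The vertical axis gives the log2 difference from AAV-V of 5 probes (Fabp1, Fabp2, Slc27a2, Acsl1 and Acsl5) and the horizontal axis 7 ways of scaling the arrays. The lines move together between scalings that shift whole arrays, and Acsl5 is the lowest of the 5 under each scaling, at 0.14 in AAV-GP73 with spike-ins.

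The third comparison set AAV-GP73 against AAV-V HFD. Of the 10 probes 1 was called, the upstream probe of Acsl1, where 1.94% of all tested probes were called, 1.85% higher and 0.091% lower. That probe entered the test only through its detection in AAV-GP73, so its call does not count as support for a difference. It was not detected in AAV-V HFD and in AAV-GP73 it was at least 1.37-fold higher (limma, adjusted p = 0.0269), and the call held under 11 of 22 other settings. It was lost without any 1 of the 3 AAV-GP73 arrays and without AAV-V HFD replicate 1 or 2. The 3′ probe of Acsl1 differed by 1.80 on the log2 scale (95% interval 0.84 to 2.76, adjusted p = 0.0624) with no overlap, as 20.4% of all tested probes were higher without overlap. Fabp1 differed by 0.31 (95% interval -0.54 to 1.16), Slc27a2 by 0.71 (-0.02 to 1.44), Acsl5 by 0.76 (-0.04 to 1.55) and Fabp2 by -0.76 (-1.74 to 0.21), with every AAV-GP73 array of Fabp2 below the AAV-V HFD arrays, as for 4.04% of all tested probes. These intervals include 0 as well as differences of over 2-fold. Slide and group cannot be told apart here either.

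In the order of mean levels, AAV-GP73 was above AAV-V HFD and AAV-V for Fabp1, Slc27a2 and Acsl1, with the upper pair apart for Acsl1 alone, and AAV-V HFD stood first for Fabp2. For Acsl5 the order was AAV-V, AAV-GP73 and AAV-V HFD, with no overlap between neighbours. Between neighbours in these orders, limma called the step next to AAV-V and no other for these probes.

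Of 32 other genes of FA uptake, binding and activation, 12 probes of 11 genes could be tested. In AAV-GP73 5 probes were called higher and 2 lower, where 25.4% and 19.3% of all tested probes were. In AAV-V HFD 3 were called higher and 2 lower, where 13.1% and 22.3% of all were. The probes of Acbd4, Acsm3 and Got2, called higher in both, entered the test through the groups where they were high. The counts of higher probes are therefore not independent of the filter. Dbi, the acyl-CoA binding protein, had 2 probes that differed in direction. The first fell by 2.24 (adjusted p = 0.00064 from limma) and by 2.67 (adjusted p = 0.000856) on the log2 scale, and the second rose by 1.13 (adjusted p = 0.0203) in AAV-GP73 and had a difference of 0.62 (adjusted p = 0.181) in AAV-V HFD. The call of the second in AAV-GP73 was lost under 6 of 23 alternative settings. Slc27a1, the transport protein of muscle and fat, fell by 2.20 (adjusted p = 0.000952) and by 1.63 (adjusted p = 0.00671). With arrays scaled on spike-ins both falls in AAV-GP73 were lost, the first Dbi probe being at -0.36 (adjusted p = 0.303) and Slc27a1 at -0.32 (adjusted p = 0.334), with -0.98 and 0.06 in AAV-V HFD. Acbd4, an acyl-CoA binding protein, rose by 1.83 and 1.51, the latter lost or turned under 6 of 23 alternatives. Acsm3, a medium-chain acyl-CoA synthetase detected on no AAV-V array, was called in both groups and was at least 1.02-fold higher in AAV-GP73, with no bound above 1 in AAV-V HFD. Got2, which as a plasma membrane protein was described to bind FAs, was at least 2.06-fold and at least 1.63-fold higher. The call in AAV-V HFD (adjusted p = 0.0341 from limma) was lost or turned under 8 of 23 alternatives, among them without AAV-V replicate 1 or 2, AAV-GP73 replicate 3, or AAV-V HFD replicate 2 or 3 (adjusted p = 0.0514 to 0.112). Slc27a5, the transport protein of liver that also activates bile acids, is named here after its values were seen. It was 1.34 higher in AAV-GP73 (adjusted p = 0.0103) and 0.05 higher in AAV-V HFD (adjusted p = 0.93). The AAV-V HFD value was called with the 75th percentile of all probes (1.27, adjusted p = 0.00374 from limma) and with spike-ins (1.74, adjusted p = 0.000392). After normexp the AAV-GP73 call was lost (0.36, adjusted p = 0.215).

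Of 11 genes for regulators of these genes, 8 probes of 5 genes could be tested. In AAV-GP73 6 were called higher, with 4 for AAV-V HFD, where 25.4% and 13.1% of all tested probes were, and none was called lower. The probes of Ppara and Nr1h3 among them entered the test through the groups where they were high. Neither these counts nor the median of the 8 probes is therefore independent of the filter. Hnf4a, a hepatocyte nuclear receptor, rose by 2.25 (adjusted p = 0.000728 from limma) and 1.04 (adjusted p = 0.0432) on the log2 scale. The second was lost under 12 of 24 alternatives, among them normexp (0.11), without AAV-V replicate 2 (0.79, adjusted p = 0.124) or 3, without any 1 AAV-GP73 array, and without AAV-V HFD replicate 2 or 3 (0.77, adjusted p = 0.138, for the last). Ppara, detected on no AAV-V array, was called in AAV-GP73 by both of its probes (adjusted p = 0.0139 and 0.00209), and in AAV-V HFD by 1 of them (adjusted p = 0.0582 and 0.0126). The first of the 2 was lost in AAV-GP73 without AAV-V replicate 1 (adjusted p = 0.0559) or AAV-GP73 replicate 3 (adjusted p = 0.0587). It was at least 1.88-fold higher there, and the second had no bound above 1. Rxra, its partner on DNA, rose by 1.42 and 1.06, the latter lost under 5 of 24 alternatives, and is named after its values were seen. Both probes of Nr1h3, which encodes LXRα, were called in AAV-GP73 and were detected on no AAV-V array. For 1 of them (adjusted p = 0.0477) the groups overlapped, with AAV-V replicate 3 at 4.08 and AAV-GP73 at 3.67 to 4.24, and the call was lost or turned under 13 of 22 alternatives, including each fit without 1 array other than AAV-V replicate 3. The other was also called in AAV-V HFD, and it was at least 1.75-fold higher in AAV-GP73 and at least 1.65-fold higher in AAV-V HFD. After normexp the sign of Ppara and Nr1h3 in AAV-GP73 turned, as did that of Acbd4, Acsm3 and Got2, while Hnf4a was called in AAV-GP73 under all 24 alternatives, from 1.11 to 4.14. The median over the 8 probes was 1.46 and 1.15, beside 0.43 and 0.05 for all probes.

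The genes whose signal was most like that of a member over the 9 arrays were sought among the 1703 probes compared. Pearson's r serves here as a description, since all share arrays and scaling. For Fabp1 they included Rpl37rt (r = 0.945) and Aldh1a1 (r = 0.921). For Slc27a2 they were Acaa1b (r = 0.960), Creg1 (r = 0.959) and Chp1 (r = 0.941).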

How the data were processed

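Liver RNA was measured on 9 one-colour Agilent arrays, 3 per group, grouped by the labels. The deposited intensity values are processed signals that the authors obtained with Feature Extraction 12.0.3.1 per the file headers (the submitters' processing notes name version 10.7 and limma), with background and spatial trend removed within each array, and arrays were not scaled to each other. A deposited table of log2 values, which the authors normalized in an unstated way, served as an alternative. Their column medians were 0.799 to 0.801, and they correlated with the log2 processed signal at 0.988 to 1. Coordinates and gene names are those of the scanner files (mm9), and promoters are from RefSeq on GRCm38.p6. All arrays bore a quality mark on 98 to 151 spots, which were left out, and 0 saturated spots. AAV-V and AAV-GP73 shared a slide, and AAV-V HFD had another.

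Analyses used R 4.3.3 with limma 3.58.1. Processed signals were taken to log2, and every array was shifted to a common 75th percentile of the 4864 spots that all 9 arrays detected (well above background), since no array had more than 18.4% of spots detected. Spots of a probe were averaged, and the 6591 probes that every array of 1 or more groups detected were fitted in all 3 groups with lmFit and eBayes. P values were adjusted by the Benjamini-Hochberg method over these probes. Calls required a 2-fold difference or more with an adjusted p under 0.05. Where a group had no detected array, the fold was bounded with the lowest detected signal of each of its arrays. On simulated data for AAV-GP73 against AAV-V with 6591 probes, 77.5% of 200 changed probes were recovered and 8 unchanged ones called. In the real comparison 2949 probes were called, far more than were changed in the simulation, so these rates need not hold for it. The members, gene lists and tests were chosen with earlier results of these data known. Every member probe was named, and of the 43 other pathway genes and regulators up to 8, called genes first, by the size of the AAV-GP73 difference. Marker lists for hepatocytes, Kupffer cells, endothelium, adipocytes, enterocytes, stellate cells, erythroid cells, T and B cells, and neutrophils were read. Outside the lists given with the results, none of 4 tested macrophage probes was called, and the 1 tested endothelial probe (Clec4g) was called higher in AAV-GP73. Of 3 stellate cell probes 1 was called higher and 1 lower there, and 2 lower in AAV-V HFD. The 1 lymphocyte and 2 neutrophil probes tested were not called. Samples were treated as unpaired, since the labels used here give a replicate number and no pairing. The deviations of the 9 pairs of arrays with equal numbers correlated at -0.11 to 0.17, with 2 over 0.1, which cannot settle whether they were paired. Alternatives were other scalings, background correction, filters, the methods' t-test, other limma settings, a replicate block and leaving out each array. For each member detected on all 9 arrays, the 3 gene names with the highest Pearson r were sought, and 1 of those of Fabp1 is not reported here.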

Additional observations from a re-analysis of the deposited data

How the results depend on the processing

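Of the 10 tested probes, Fabp1 passed in AAV-GP73 under all 24 alternatives that could be run for it. Slc27a2 (24 alternatives), Acsl1 and Fabp2 (23 each) passed under all but normexp, where they were at 0.82, 0.89 and 0.13. The number of arrays and the signal over background limit the rest: 8 probes had no measure, and a fold against AAV-V is often a bound. The causes of the changes listed here were not tested.

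For AAV-GP73 against AAV-V, 2949 probes were called and 5 of the 10. The counts were 4724 over all with the 75th percentile of all probes, 5215 and 8 with spike-in scaling, 1224 and 2 with normexp, 48733 and 11 with no filter on dim probes, and 1190 and 2 among probes detected on all 9 arrays. Of the calls with no filter, 46839 of the 48733 and 7 of the 11 were lower. Most probes fitted there had failed the detection filter, so these counts are not a share of changed genes. For AAV-V HFD against AAV-V, 2337 and 7 were called. The counts were 3937 over all with the 75th percentile of all probes, 4512 over all with spike-in scaling, 49064 and 14 with no filter, 1178 and 2 among probes detected on all 9 arrays, and 29 and 0 with the methods' t-test after Benjamini-Hochberg adjustment (1947 and 5 before it, at the threshold the methods give). With no filter, 48072 of the 49064 and 10 of the 14 were lower, with the same limit. For AAV-GP73 against AAV-V HFD, 128 and 1 were called by limma, and 1058 probes had an unadjusted p under 0.05. The counts were 37 and 0 with quantile normalization, 378 over all with spike-in scaling, 42 over all with normexp, 27 and 0 with the log2 values of the authors, 207 and 0 with no filter, 0 and 0 among probes detected on all 9 arrays (308 with an unadjusted p under 0.05), 464 and 3 with the methods' t-test, and 0 and 0 after its adjustment (984 unadjusted). Among the 10 alone, the count was 0 with the 75th percentile of all probes and with the brightest probe per gene, and 2 with a trended, robust eBayes.

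Leaving out each array in turn gave 2351 to 3031 calls and 5 to 6 of the 10 for AAV-GP73 against AAV-V, 1757 to 2351 and 2 to 7 for AAV-V HFD against AAV-V, and 39 to 211 and 0 to 1 for AAV-GP73 against AAV-V HFD. The last was 51, 50 and 39 without AAV-GP73 replicates 1, 2 and 3, and 53 and 211 when AAV-V HFD replicate 1 or 3 was left out.

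The following log2 differences, called as reported or under the alternative, turned sign. With the 75th percentile of all probes, Fabp4 was 1.13 and the upstream Acsl1 probe 0.19 in AAV-V HFD. With quantile normalization that probe was 0.47, and in the log2 values of the authors 0.55. With spike-in scaling Acsl5 was 0.14 and Slc27a4 1.51 in AAV-GP73, while for AAV-V HFD Slc27a1 was 0.06, Fabp4 1.60, the upstream Acsl1 probe 0.65 and Slc27a4 0.13. With normexp, in AAV-GP73, Got2 was -0.27, Acbd4 -0.17, Acsm3 -0.55, the Nr1h3 probes -0.60 and -0.46 and the Ppara probes -0.37 and -0.57. In AAV-V HFD it gave Got2 -0.63, Acbd4 -0.47, Acsm3 -0.81, Acsl1 -0.27, Acsl4 -1.11, a Ppara probe -0.90 and an Nr1h3 probe -0.63. Others that turned were called under neither, among them, with normexp, Acsl4 (-0.82), the upstream Acsl1 probe (-0.82) and Fabp4 (-0.78) in AAV-GP73, and Fabp5 (-0.96), Slc27a5 (-0.56), a Ppara probe (-0.63) and an Nr1h3 probe (-0.85) in AAV-V HFD. With spike-ins Fabp5 was 0.94 in AAV-GP73.

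A fit with the replicate block called 2986, 2390 and 121 probes in the order of the comparisons above, and 5, 6 and 1 of the 10. The probe it lost was Fabp1 in AAV-V HFD (adjusted p = 0.0521), and it added a Ppara probe there (adjusted p = 0.0498). Whether equal numbers mark paired arrays is not settled, so that block groups arrays known to share only a number.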
